A study of Danio rerio with 6 samples.

Results

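The data concern 10 genes of the growth programme of blood-forming tissue: both zebrafish copies of MYC and 8 factors that build ribosomes, namely npm1a, ncl, FBL, NOP56, NOP58, DKC1, NOP10 and BOP1. They were chosen by symbol from a table of 32057 Ensembl genes, with letter case ignored, and each of the 10 was found. The name table calls both MYC copies MYC and does not say which is myca and which mycb. They were therefore matched without the copy suffix and are given with their identifiers. RNA was sequenced from the whole kidney marrow of adult zebrafish of 2 genotypes. The first, rad21+/-, was heterozygous in the germline for rad21a nz171, in which a glycine codon of exon 8 is turned into a stop, and the second was wild type, from the same crosses of heterozygous parents. Each genotype had 3 libraries, and each library was made from the marrow of 3 fish pooled, so single fish cannot be seen. The sex of the fish, their exact age and whether pools shared a clutch are not stated, and p-values measure the spread between these pools.

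MYC proteins are transcription factors that bind DNA with their partner MAX and are known for driving cell growth and division in blood progenitors. Making ribosomes is among the best known processes under MYC control. Ribosomal RNA is transcribed by RNA polymerase I in the nucleolus and is then modified at sites chosen by small nucleolar RNAs. Box C/D particles, built on fibrillarin (FBL), NOP56, NOP58 and SNU13, add methyl groups. Box H/ACA particles, built on dyskerin (DKC1), NOP10, NHP2 and GAR1, convert uridine to pseudouridine. Nucleophosmin (npm1a) and nucleolin (ncl) are abundant nucleolar proteins that handle ribosomal RNA and assembling particles, and BOP1 acts with PES1 and WDR12 in the PeBoW complex that matures the large subunit. In mammals Rad21 is the clasp of the cohesin ring, which joins sister chromatids and shapes loops of chromatin.

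Genotype was not the only difference between libraries. Read depth is unknown because the deposited TPM, an abundance scaled for gene length and library total, sums to the same total in each library, and between 25643 and 26455 genes had a TPM above 0. Blood markers were present in every library: lyz of neutrophils and macrophages ranged from 13256.5 to 41724 TPM, the alpha globin hbaa1 from 10548 to 38223.5 TPM and the leukocyte gene ptprc from 35.3 to 126 TPM. Oocyte markers were present too. The 27 genes of that list summed to 315, 227 and 6.61 TPM in heterozygous pools 1 to 3, and to 422.6, 26363 and 7382 TPM in wild-type pools 1 to 3. For markers of the interrenal gland, which makes steroids, the sums were 7.79, 551 and 792 TPM in heterozygotes (pools 1 to 3), against 4.56, 54.03 and 18.7 TPM in the wild type. Skeletal muscle markers summed to between 13.5 and 22.5 TPM in the heterozygotes and between 78.8 and 105 TPM in the wild type, and cell division genes to between 869 and 1068 TPM in the heterozygotes and between 861 and 2204 TPM in the wild type. Of the 23 tested cell division genes 11 were lower without overlap and 0 higher, against 9.79% and 11.9% of all tested genes. At an unadjusted limma p under 0.05, 10 were lower and 0 higher, against 7.88% and 7.12%, and 0 passed the threshold. Their median log2 fold change was -0.45, or -0.43 without wild-type pools 2 and 3. The part of these marker and cell division genes in the results was not tested. Globins made up 8.16%, 18.8% and 12.2% of a library in heterozygous pools 1 to 3 and 22.2%, 6.19% and 12.5% in wild-type pools 1 to 3. In bulk marrow, fewer cells of a type and less RNA per cell cannot be told apart. The mutated gene rad21a stood at 67.4, 61.6 and 61.98 TPM in the rad21+/- pools, against 110.1, 73.9 and 108 TPM in the wild-type pools, so the groups did not overlap. Its log2 fold change was -0.58 ± 0.22 (SE, limma adjusted p = 0.30).

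Of the 10 genes, 5 lay higher in every heterozygous pool than in every wild-type pool: npm1a, FBL, NOP56, DKC1 and NOP10. Of all tested genes, 11.9% did so, and 9.79% lay lower without overlap, which held for 0 of the 10. None of the 10 passed the threshold of a limma adjusted p under 0.05 over all 16537 tested genes, a threshold that 1.37% of these genes passed, 0.81% higher and 0.562% lower. At an unadjusted limma p under 0.05 stood 3 of the 10, FBL, DKC1 and npm1a, all higher in the heterozygotes, against 7.12% of all tested genes in that direction and 7.88% lower. Fold changes were positive for 8 of the 10 and for 48.1% of all tested genes, and the median log2 fold change of the 10 was 0.37, against -0.022 over all tested genes. The 10 were chosen with earlier results of these data known, so these shares describe them and are not a test. For a single gene the two-sided exact permutation test of 3 pools against 3 cannot give less than p = 0.1. Of 17 tested blood markers 14 fold changes were positive, with a median log2 fold change of 0.45, 5 higher and 0 lower without overlap, 4 higher at an unadjusted limma p under 0.05 and 0 past the threshold. Their part in the levels of the 10 genes was not tested. All 10 passed the filter on low values, at least 1 TPM in 3 or more libraries. Fold changes are those of TPM + 1 on the log2 scale.

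**Figure D1:**
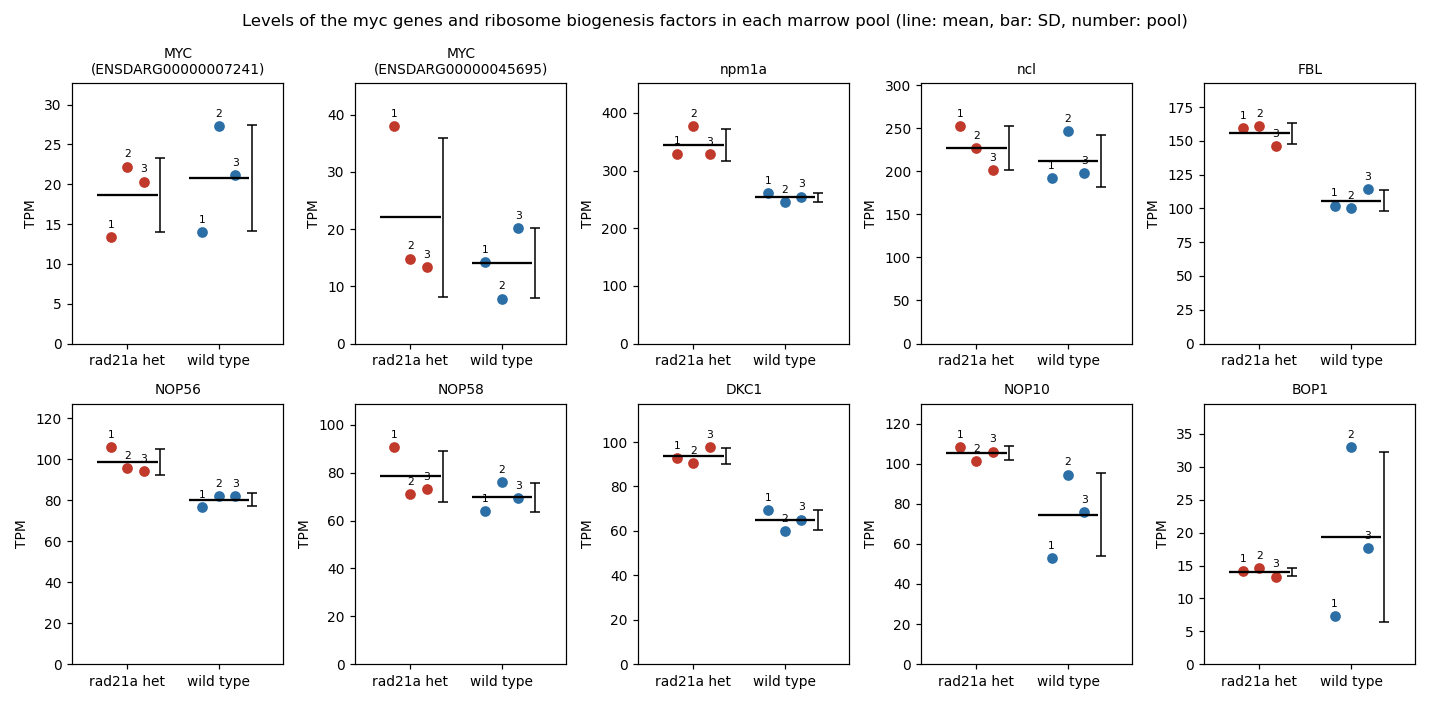
Level of each of the 10 genes in TPM (vertical axes, from 0) in the 3 rad21a heterozygous pools (left, red) and the 3 wild-type pools (right, blue). Numbers mark the pools, lines the means and bars the SD. For npm1a, FBL, NOP56, DKC1 and NOP10 all red points lie above all blue points, and BOP1 spreads from 7.32 to 33.03 TPM in the wild type.

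The 2 MYC genes did not share a pattern. MYC (ENSDARG00000007241) stood at 13.4, 22.2 and 20.3 TPM in the rad21+/- pools, against 14.002, 27.3 and 21.2 TPM in the wild-type pools. Pool 1 of each genotype was lowest, and the groups overlapped. Its log2 fold change was -0.13 ± 0.32 (SE, limma adjusted p = 0.85), and it turned to 0.076 without heterozygous pool 1, to 0.076 without wild-type pool 2 and to 0.36 without wild-type pools 2 and 3.

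MYC (ENSDARG00000045695) stood at 37.98, 14.8 and 13.3 TPM in the rad21+/- pools, against 14.2, 7.85 and 20.2 TPM in the wild-type pools. Heterozygous pool 1 was far above the other 5 libraries, which overlapped. The log2 fold change was 0.54 ± 0.49 (SE, limma adjusted p = 0.61), and it was 0.087 without heterozygous pool 1, 0.20 without wild-type pool 2 and 0.83 without wild-type pool 3. Of 17 tested blood markers 13 were also highest in heterozygous pool 1, against 23.5% of all tested genes, and the 19 listed summed to between 35800 and 55308 TPM in the heterozygotes and between 30502 and 53558 TPM in the wild type. In that pool SPI1, a regulator of myeloid cells, stood at 179.9 TPM, against 65.0 to 92.6 TPM in the other libraries, and CEBPA, a regulator of granulocytes, at 96.2 TPM, against 33.05 to 50.4 TPM. The lymphoid markers cd79a and igic1s1 stood at 100 and 457 TPM there, against 10.1 to 38.6 and 14.7 to 158 TPM elsewhere. RAG1, also lymphoid, had 7.18 TPM, against 1.49 to 3.07 TPM. The red cell markers gata1a, hbaa1, alas2 and SLC4A1 (ENSDARG00000012881) were not highest there, at 13.1, 11036, 157 and 247 TPM. Over the 6 libraries they ranged from 10.8 to 35.6, 10548 to 38223.5, 146 to 516 and 180 to 805 TPM. The part of the blood markers in the MYC level of that pool was not tested. The ratio of MYC (ENSDARG00000045695) to MYC (ENSDARG00000007241), which no rescaling of a library can move, was 2.84, 0.668 and 0.654 in the heterozygous pools and 1.01, 0.288 and 0.953 in the wild-type pools. How reads that match both copies were counted is not stated.

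None of the other tested members of the MYC family passed the threshold either. mych, a fish MYC relative, stood at 23.7, 25.98 and 21.6 TPM in the rad21+/- pools, against 15.2, 18.9 and 21.0 TPM in the wild-type pools, without overlap (log2 fold change 0.36, limma adjusted p = 0.46). MYCL, which encodes the L-Myc member of the family, stood at 10.9, 14.5 and 16.1 TPM in the rad21+/- pools, against 20.4, 28.6 and 17.0 TPM in the wild-type pools, also without overlap (log2 fold change -0.62, limma adjusted p = 0.35). Its relative mycla stood at 14.3, 8.66 and 7.20 TPM in the rad21+/- pools, against 10.6, 126.6 and 52.9 TPM in the wild-type pools, high in the pools with the most oocyte marker RNA (log2 fold change -2.01, limma adjusted p = 0.33). MAX, the partner of MYC proteins, averaged 76.3 ± 8.11 TPM in the heterozygotes and 80.4 ± 24.2 TPM in the wild type (SD, n = 3 each). MYCN stayed at or under 1.35 TPM in every library and was not tested. MAX was named by the rule on levels, MYCL and mycla by the rule on p, and mych and MYCN were chosen after their values were seen.

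Nucleophosmin and nucleolin had the highest levels of the 10 but differed in pattern. npm1a stood at 329.6, 376.8 and 328.4 TPM in the rad21+/- pools, against 260.3, 244.9 and 254.96 TPM in the wild-type pools. The wild-type pools were close together and the lowest heterozygous pool lay above all of them. The heterozygous mean was 136% of the wild-type mean, with a log2 fold change of 0.44, a 95% interval from 0.040 to 0.84 and a limma adjusted p of 0.30. Its second copy npm1b, chosen after its values were seen, was much lower, at 9.85, 10.97 and 9.15 TPM in the rad21+/- pools, against 6.99, 8.31 and 9.33 TPM in the wild type, with overlap. ncl stood at 252.2, 226.9 and 201 TPM in the rad21+/- pools, against 192, 246.9 and 197.6 TPM in the wild-type pools, which overlapped. Its log2 fold change was 0.098 with a 95% interval from -0.37 to 0.57 (limma adjusted p = 0.82). The ratio of npm1a to ncl was 1.31, 1.66 and 1.63 in the heterozygous pools and 1.36, 0.992 and 1.29 in the wild-type pools, which overlapped.

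Among the box C/D proteins of the 10, FBL differed most between the genotypes. FBL, the enzyme that places the methyl groups, stood at 159.5, 160.9 and 146.4 TPM in the rad21+/- pools, against 102, 100.2 and 114.6 TPM in the wild-type pools. Both groups were tight and far apart. Its heterozygous mean was 147% of the wild-type mean, and the log2 fold change was 0.55 with a 95% interval from 0.14 to 0.97 (limma adjusted p = 0.24, the smallest of the 10). NOP56, a scaffold of the particle, stood at 105.98, 95.7 and 94.2 TPM in the rad21+/- pools, against 76.7, 81.9 and 82.2 TPM in the wild-type pools. These groups did not overlap either, with a smaller log2 fold change of 0.29 (95% interval -0.13 to 0.71, limma adjusted p = 0.47). NOP58, its partner scaffold, stood at 90.7, 71.2 and 73.3 TPM in the rad21+/- pools, against 63.9, 75.9 and 69.3 TPM in the wild-type pools, which overlapped. Only heterozygous pool 1 was above all wild-type pools (log2 fold change 0.16, limma adjusted p = 0.71).

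Ratios within a library compare these transcripts free of its total. None of the 10 ratios could pass 0.05 after adjustment, because the exact permutation test of these pools cannot give less than p = 0.1. The adjusted p-values therefore do not decide whether a ratio differs between the genotypes. The ratio of NOP58 to FBL was 0.569, 0.443 and 0.501 in the heterozygous pools and 0.625, 0.757 and 0.605 in the wild-type pools. That of NOP56 to FBL was 0.664, 0.595 and 0.643 in the heterozygous pools and 0.750, 0.817 and 0.717 in the wild-type pools. Both ratios were lower in every heterozygous pool than in any wild-type pool. The two-sided exact permutation p was 0.1 for each, and 0.5 after Benjamini-Hochberg adjustment over the 10 ratios compared. FBL is the divisor of both, so they are not separate from each other or from the FBL difference. The ratios of BOP1 and DKC1 to FBL overlapped between the genotypes. NOP56 to NOP58 ran from 1.17 to 1.35 in the heterozygous pools and from 1.08 to 1.201 in the wild-type pools, with overlap. SNU13, the small RNA-binding protein of the particle, has 2 genes under one symbol. The higher, SNU13 (ENSDARG00000023299), stood at 152.8, 143.1 and 129.7 TPM in the rad21+/- pools, against 78.8, 182.6 and 111.7 TPM in the wild-type pools. The lower, SNU13 (ENSDARG00000069878), stood at 14.8, 11.8 and 10.6 TPM in the rad21+/- pools, against 7.31, 10.1 and 7.84 TPM in the wild-type pools, without overlap (log2 fold change 0.51, limma adjusted p = 0.37).

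**Figure D2:**
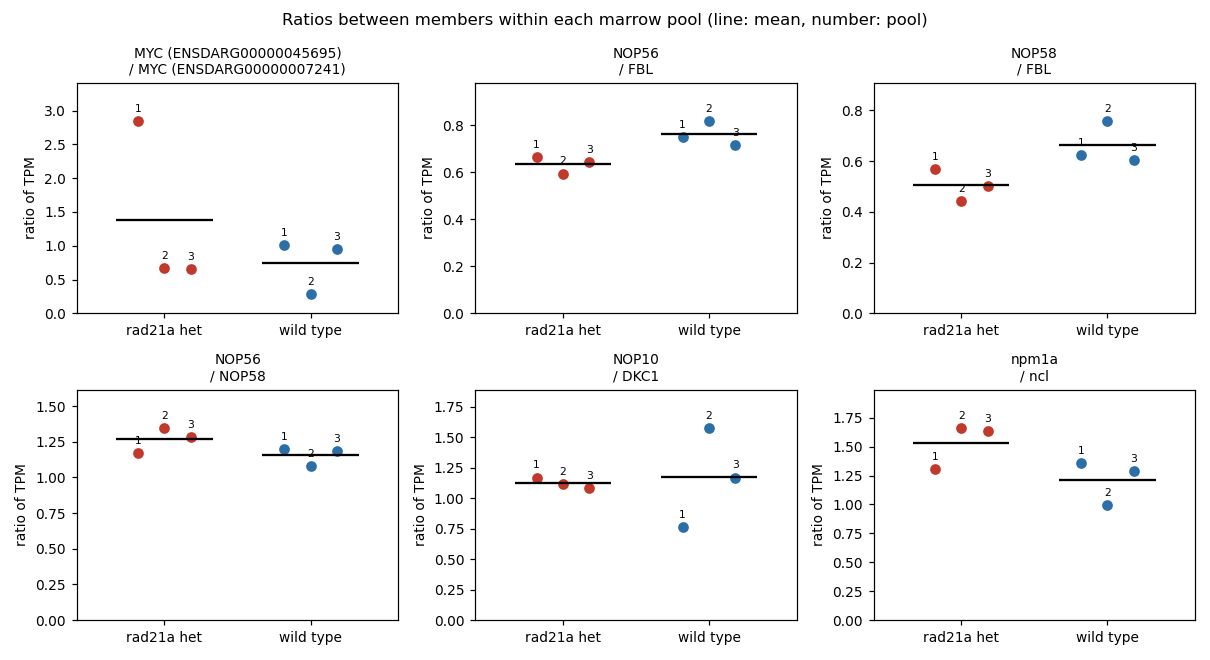
Ratios of TPM between pairs of the 10 genes within each pool (vertical axes, from 0), with the 3 rad21a heterozygous pools on the left and the 3 wild-type pools on the right of each panel. Numbers mark the pools and lines the means. NOP56 to FBL and NOP58 to FBL lie lower in all heterozygous pools, and the ratio of the MYC copies reaches 2.84 in heterozygous pool 1.

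In the box H/ACA particle both members lay higher in the heterozygotes. DKC1, the pseudouridine synthase, stood at 92.7, 90.7 and 97.8 TPM in the rad21+/- pools, against 69.2, 60.1 and 65.1 TPM in the wild-type pools. The heterozygous mean was 145% of the wild-type mean, and the log2 fold change was 0.53 with a 95% interval from 0.10 to 0.95 (limma adjusted p = 0.25). NOP10, the small protein bound to dyskerin, stood at 108, 101.3 and 106.1 TPM in the rad21+/- pools, against 53.02, 94.6 and 76.1 TPM in the wild-type pools. The gap between the groups was narrow, with wild-type pool 2 close to the heterozygous pools (log2 fold change 0.53, 95% interval -0.068 to 1.13, limma adjusted p = 0.38). The NOP10 log2 fold change was 0.31 without wild-type pool 1 and 0.98 without wild-type pools 2 and 3. The ratio of NOP10 to DKC1 was 1.17, 1.12 and 1.08 in the heterozygous pools and 0.766, 1.57 and 1.17 in the wild-type pools. Their partners NHP2 and GAR1, chosen for the complex after values were seen, overlapped between the genotypes. NHP2 stood at 102.5, 95.2 and 93.6 TPM in the rad21+/- pools, against 51.3, 131.8 and 80.8 TPM in the wild-type pools. GAR1 had 32.2, 31.8 and 29.6 TPM in heterozygous pools 1 to 3 and 19.1, 36.6 and 27.4 TPM in wild-type pools 1 to 3.

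BOP1 was level in the heterozygotes and scattered in the wild type. It stood at 14.1, 14.6 and 13.3 TPM in the rad21+/- pools, against 7.32, 33.03 and 17.6 TPM in the wild-type pools. Wild-type pool 1 was below all heterozygous pools and wild-type pools 2 and 3 were above them. Among the wild-type pools only, BOP1 followed the order of the oocyte marker sums. Heterozygous pools 1 to 3 had lower sums (315, 227 and 6.61 TPM) than wild-type pool 1 (422.6 TPM) but more BOP1. The part of oocyte RNA in the BOP1 level was not tested. The log2 fold change was -0.21 ± 0.49 (SE, limma adjusted p = 0.85). It was -0.75 without wild-type pool 1, 0.27 without wild-type pool 2 and 0.85 without pools 2 and 3, so a direction was not settled. Of its complex partners, PES1 stood at 41.9, 38.6 and 38.7 TPM in the rad21+/- pools, against 26.5, 32.8 and 33.4 TPM in the wild-type pools, without overlap (log2 fold change 0.36, limma adjusted p = 0.43). WDR12 stood at 16.8, 14.3 and 16.3 TPM in the rad21+/- pools, against 13.1, 31.4 and 19.9 TPM in the wild-type pools, the same uneven wild type as BOP1. PES1 and WDR12 were chosen for the complex after their values were seen.

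Set side by side as TPM, levels ran in the order npm1a, ncl, FBL, NOP10, NOP56, DKC1, NOP58, the MYC genes and BOP1. npm1a lay above ncl in 5 of the 6 libraries, and ncl above FBL and FBL above NOP10 in all 6. NOP10, NOP56, DKC1 and NOP58 averaged 89.9, 89.4, 79.3 and 74.1 TPM over the 6 libraries, and neighbours in that order changed places in 1 or 2 libraries. Both MYC genes and BOP1 averaged 19.7, 18.1 and 16.7 TPM and were not ordered beyond their spread. The median coefficient of variation of the 10 was 7.26% in the heterozygous pools and 11.5% in the wild-type pools, against 18.8% and 30.5% over all tested genes. It was largest for MYC (ENSDARG00000045695) in the heterozygotes, at 62.7%, and for BOP1 in the wild type, at 66.95%. By mean TPM the 10 stood from percentile 71.1 (BOP1) to 97.9 (npm1a) of the tested genes. Spread was not compared with genes of like level.

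Leaving out libraries moved some genes less than others. With each library left out in turn, the log2 fold change ran from 0.52 to 0.61 for FBL, from 0.47 to 0.58 for DKC1, from 0.38 to 0.47 for npm1a and from 0.24 to 0.32 for NOP56. It ran from 0.31 to 0.72 for NOP10, from 0.054 to 0.23 for NOP58 and from 0.019 to 0.21 for ncl. The unadjusted limma p ran from 0.027 to 0.074 for FBL, from 0.023 to 0.095 for DKC1 and from 0.051 to 0.15 for npm1a. These fits reuse the same libraries and are not separate support. The oocyte-marker list was highest in wild-type pools 2 and 3. The 10 genes were also compared with wild-type pool 1 alone, which had 423 TPM of those markers. FBL, DKC1, npm1a and NOP56 then had log2 fold changes of 0.60, 0.43, 0.40 and 0.36, against 0.55, 0.53, 0.44 and 0.29 with all libraries. NOP10, BOP1 and ncl had 0.98, 0.85 and 0.23, against 0.53, -0.21 and 0.098. NOP58, MYC (ENSDARG00000007241) and MYC (ENSDARG00000045695) had 0.28, 0.36 and 0.45, against 0.16, -0.13 and 0.54. Oocyte RNA cannot be told apart here from other traits of wild-type pool 1, and its part was not tested. In that fit all 10 genes were positive, as were 67.5% of all tested genes, whose median was 0.17. Its 1 wild-type library is taken to vary as the heterozygous ones do, and 0 genes passed over all 15473 tested, with 2087 at an unadjusted limma p under 0.05. After removal of globin, mitochondrial and oocyte-list genes from the total, the same 5 genes stayed without overlap, and NOP58 joined them, so that 6 of the 10 were higher. Of all tested genes 11.2% were higher without overlap after that removal and 13.7% lower. With median-ratio scaling instead, only the same 5 were higher without overlap. Of all tested genes 15.1% were then higher without overlap and 11.6% lower.

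**Figure D3:**
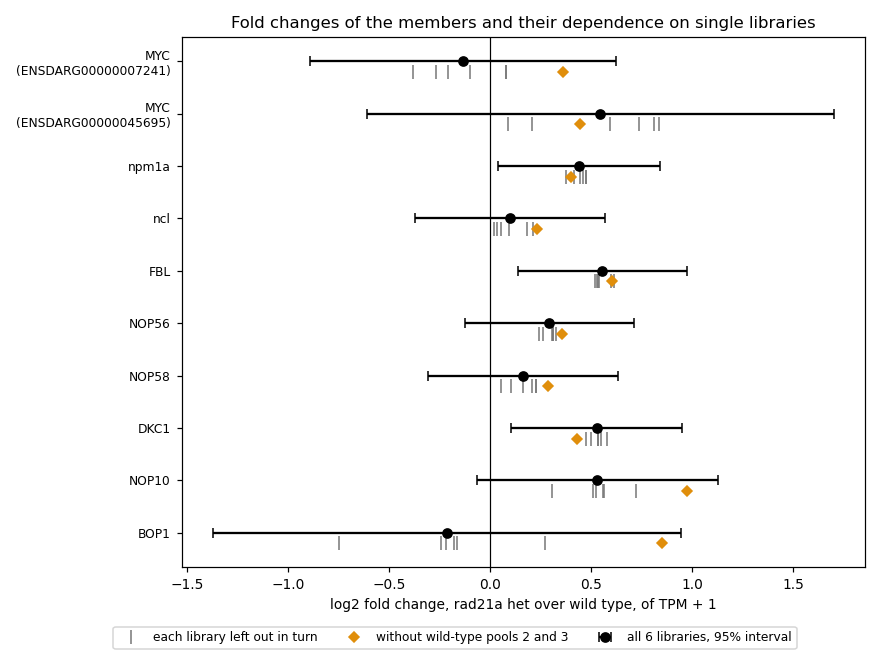
Log2 fold change of each of the 10 genes, rad21a heterozygous over wild type, of TPM + 1 (horizontal axis). Black points and bars give all 6 libraries with the 95% interval, grey ticks each library left out in turn, and orange diamonds the fit without wild-type pools 2 and 3. FBL, DKC1, npm1a and NOP56 keep nearly the same value, while BOP1 runs from -0.75 to 0.85.

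The wider pathway was read from 6 lists of growth and ribosome biogenesis genes outside the 10, with 180 genes tested, of which 3 stood in a pair of lists. None passed over all tested genes (1.37% of which did). In the list of small nucleolar particle proteins and their assembly factors 5 of 13 fold changes were positive, with a median log2 fold change of -0.30 and 0 higher and 1 lower at an unadjusted limma p under 0.05. Of 49 large subunit assembly genes 18 were positive, with a median of -0.14, and of 56 small subunit genes 19, with a median of -0.12. RNA polymerase I genes had 2 of 12 positive and a median of -0.27. The MYC family and partners had 10 of 20 positive and a median of 0.044. Nucleolar and MYC-linked growth genes had 26 of 33 positive and a median of 0.26. At an unadjusted limma p under 0.05 these 5 lists had 1, 1, 0, 0 and 4 genes higher and 0, 2, 0, 1 and 1 lower, in the order given. Groups without overlap, higher in the heterozygotes, were found for 2, 5, 6, 0, 4 and 13 genes of the 6 lists in the same order, and lower for 1, 0, 3, 0, 1 and 1. Over all tested genes the median was -0.022, 7.12% were higher and 7.88% lower at an unadjusted limma p under 0.05, and 11.9% were higher and 9.79% lower without overlap. The 5 of 49 large subunit and 6 of 56 small subunit genes stood near that share, and the 13 of 33 nucleolar and growth genes above it. These lists too were chosen with earlier results of these data known, so the counts are a description.

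The sign of most list medians depended on the wild-type pools. Of the 13 small nucleolar particle genes 11 were highest in wild-type pool 2 and 11 lowest in wild-type pool 1, and this held for 38 and 39 of the 49 large subunit genes and for 45 and 47 of the 56 small subunit genes. Over all tested genes 35.1% were highest in wild-type pool 2 and 30.7% lowest in wild-type pool 1. The counts were 9 and 9 of the 12 RNA polymerase I genes and 8 and 10 of the 20 MYC family genes and partners. They were 11 and 18 of the 33 nucleolar and MYC-linked growth genes. Of the 10 main genes 2 were highest in wild-type pool 2 and 5 lowest in wild-type pool 1. Without wild-type pools 2 and 3 the medians of the particle, large subunit, small subunit and RNA polymerase I lists were 0.39, 0.31, 0.36 and 0.30. Without wild-type pool 1 they were -0.65, -0.37, -0.42 and -0.65. In the same fits the median of the MYC family and partners was 0.16 and -0.11, and that of all tested genes 0.17 and -0.064. The nucleolar and MYC-linked growth genes kept a positive median in both, at 0.49 and 0.22. All 20 tested oocyte markers were highest in wild-type pool 2, and the part of oocyte RNA in these medians was not tested. Without wild-type pool 1, 4 of 180 list genes passed in limma, against 5.28% of all tested genes (1.14% higher and 4.14% lower). All 4 were lower in the heterozygotes: mycla, SHQ1, ZNHIT3 and EIF4E1B, with log2 fold changes of -2.96, -1.34, -2.86 and -5.03 and limma adjusted p of 0.029, 0.0496, 0.049 and 0.017.

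**Figure D4:**
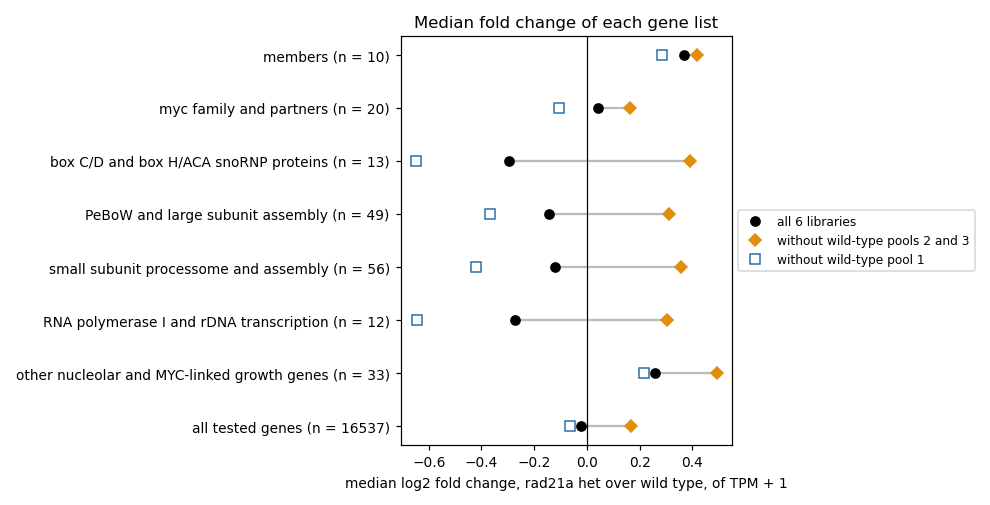
Median log2 fold change, rad21a heterozygous over wild type, of TPM + 1 (horizontal axis) for the 10 genes, the 6 gene lists and all tested genes. Black points use all 6 libraries, orange diamonds leave out wild-type pools 2 and 3, and open squares leave out wild-type pool 1. The particle, subunit, RNA polymerase I and MYC family lists change sign between the fits, as do all tested genes. The 10 genes stay between 0.28 and 0.42, and the nucleolar and MYC-linked growth list between 0.22 and 0.49.

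Several list genes lay higher in the heterozygotes without overlap, as FBL and DKC1 did, and others lay lower, some of them also without overlap. They were named by the rule on p, which favours groups that lie apart. MRTO4, a large subunit assembly factor, averaged 63.8 ± 1.02 TPM in the heterozygotes and 44.7 ± 7.50 TPM in the wild type without overlap (log2 fold change 0.52, limma adjusted p = 0.31). nop2, which methylates large subunit RNA, averaged 31.6 ± 2.79 TPM in the heterozygotes and 23.1 ± 3.07 TPM in the wild type (SD, n = 3 each). EMG1, which methylates small subunit RNA, averaged 21.2 ± 0.986 TPM in the heterozygotes and 13.7 ± 2.96 TPM in the wild type. Neither nop2 nor EMG1 overlapped between the genotypes (limma adjusted p = 0.37 and 0.29). PRMT1, the arginine methyltransferase, stood at 84.8, 85.1 and 88.4 TPM in the rad21+/- pools, against 54.6, 55.7 and 56.2 TPM in the wild-type pools, a log2 fold change of 0.62 with very tight groups (limma adjusted p = 0.19). HSPE1, a mitochondrial chaperonin, averaged 807 ± 182 TPM in the heterozygotes and 460.0 ± 28.7 TPM in the wild type (limma adjusted p = 0.20).

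Of the lower genes, RIOK3, a kinase tied to small subunit maturation, stood at 24.5, 28.9 and 27.6 TPM in the rad21+/- pools, against 46.4, 44.4 and 39.0 TPM in the wild-type pools. These groups did not overlap, and its log2 fold change was -0.66 (limma adjusted p = 0.21). DDX47, an RNA helicase, stood at 98.97, 69.5 and 91.2 TPM in the rad21+/- pools, against 103.7, 230.3 and 162.2 TPM in the wild-type pools (log2 fold change -0.87, limma adjusted p = 0.29). SHQ1, which accompanies new dyskerin, stood at 3.30, 2.69 and 2.47 TPM in the rad21+/- pools, against 3.57, 11.1 and 6.62 TPM in the wild-type pools (log2 fold change -0.98, limma adjusted p = 0.29). DDX47 and SHQ1 did not overlap between the genotypes either, and both were highest in wild-type pool 2. So was POLR1H, a small RNA polymerase I subunit, at 19.3, 15.2 and 21.7 TPM in heterozygous pools 1 to 3 and 11.99, 130.7 and 44.1 TPM in wild-type pools 1 to 3 (log2 fold change -1.12, limma adjusted p = 0.52). ZNHIT3, an assembly factor of box C/D particles, had 11.8, 10.3 and 9.72 TPM in heterozygous pools 1 to 3 and 9.23, 170.8 and 39.8 TPM in wild-type pools 1 to 3. EIF4E1B, a cap-binding protein known from oocytes, had the lowest p of the lists, with 1.75, 2.105 and 1.18 TPM in the rad21+/- pools, against 6.76, 149.5 and 49.2 TPM in the wild-type pools (log2 fold change -3.87, limma adjusted p = 0.16). Its groups did not overlap, while those of POLR1H and ZNHIT3 did.

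Likeness to other genes was measured over the 6 libraries as the root mean square distance between log2(TPM + 1) profiles, each with its own mean removed, among 13134 tested genes with a gene-like symbol. It is a description of these libraries. Among the genes nearest to FBL were SET (ENSDARG00000003920) and gas5, at distances of 0.054 and 0.063 on the log2 scale, and nearest to DKC1 was RPL21, at 0.0496. RPL21 encodes a ribosomal protein. Nearest to MYC (ENSDARG00000045695) were CEBPB, MAP3K8 and slco2b1, at 0.16 each, with CEBPB at 347.3, 124.7 and 138.4 TPM in the rad21+/- pools, against 132.3, 99.4 and 193.6 TPM in the wild-type pools. Nearest to MYC (ENSDARG00000007241) was AQP3 (ENSDARG00000003808), at 0.048, and nearest to BOP1 was UNG (ENSDARG00000042527), at 0.064. Nearest to the mean of the 8 genes other than MYC was srsf10a, at 0.031. Among the 10 themselves the closest pairs were ncl with NOP58 at 0.094 and npm1a with FBL at 0.097, and the 2 MYC genes were 0.93 apart. Each gene of these closest pairs had a nearer gene among the 13134 outside the 10. EFTUD2 lay at 0.028 from ncl, CBX1 (ENSDARG00000004189) at 0.031 from NOP58 and ITGB1BP1 at 0.025 from npm1a, with SET at 0.054 from FBL as above.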

How the data were processed

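The authors deposited 1 table of TPM, an abundance scaled for gene length and library total, for 6 libraries, one column per library. The authors' tools were HISAT2 2.0.4, featureCounts and FastQC on build GRCz11, per the submitters' processing notes. Annotation, gene lengths, strand setting and the treatment of reads with several matches are not stated, so overlapping genes and near-identical copies are uncertain. TPM keeps no depth, so no count test was run and no counting interval is given. Symbols came from a name table, which names 28988 of 32057 identifiers, and no coordinates were used.

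Genes reaching 1 TPM in 3 or more libraries were fitted on log2(TPM + 1) with limma 3.58.1 (R 4.3.3), with genotype as the only term, a mean-variance trend and two-sided p-values adjusted by the Benjamini-Hochberg method over all tested genes. The threshold was an adjusted p under 0.05. The fit was tested on simulated data. The members and lists were chosen with earlier results of these data known. Lists were matched by symbol, or without the copy suffix. The rule named all 10 genes, and per list the genes past the threshold or else the 3 with the smallest p, and the one with the highest level; some of these are not described. It also took the 3 nearest genes of each profile. A gene that the rule took is not reported here.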

Additional observations from a re-analysis of the deposited data

How the results depend on the processing

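Of the 10 genes, 0 passed in limma under any of the 17 other fits or at an adjusted p under 0.1. The fits covered pseudocounts of 0.1 and 0.5, filters, median-ratio and quantile scaling, removal of globin, mitochondrial and oocyte genes, no variance trend, the replicate block and reduced sets of libraries. FBL, DKC1, npm1a, NOP56, NOP10, NOP58, ncl and MYC (ENSDARG00000045695) were positive in all 17. MYC (ENSDARG00000007241) turned to 0.076 without heterozygous pool 1, 0.076 without wild-type pool 2 and 0.36 without wild-type pools 2 and 3, and BOP1 to 0.27 and 0.85 in the last pair of fits; the cause was not tested. With each library left out in turn, MYC (ENSDARG00000007241) ran from -0.38 to 0.076 and BOP1 from -0.75 to 0.27. Across all genes, 227 passed, 134 higher and 93 lower. That count was 117 with a minimum of 5 TPM, 132 with no filter and 397 at an adjusted p under 0.1. It was 0 without wild-type pools 2 and 3 and 0 without heterozygous pools 2 and 3, each with 1 library left in a genotype, with 2087 and 972 genes at an unadjusted limma p under 0.05. It ran from 4 (without wild-type pool 3) to 849 (without wild-type pool 1) with 1 library left out. Quantile normalization split its 260 calls into 183 higher and 77 lower, and median-ratio scaling its 276 into 185 and 91. Lower calls outnumbered higher ones without wild-type pool 1 (183 higher, 666 lower), without heterozygous pool 1 (11 and 27), 2 (12 and 29) or 3 (6 and 14), and with the replicate block (10 and 15). Of the list genes, between 0 and 4 passed with 1 library left out, and 0 passed in the other fits. With the replicate number as a block 25 genes passed. Libraries that share a number had correlations of their deviations across genes of -0.27, 0.12 and -0.13 for numbers 1 to 3. Heterozygous pools 1 and 3 correlated best with another number and pool 2 with its own. The numbers were not used to pair the pools, because the labels give no batch. Whether pools shared a clutch is not stated, and correlations over so few pools cannot decide it. Depth is unknown, which limits what can be said of low genes.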
